A study of Arabidopsis thaliana with 15 samples.

Results

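Polysome-bound RNA was set against total RNA in the aerial part of Arabidopsis thaliana seedlings kept in darkness. The comparison takes every library that the labels give as polysome-bound RNA of Dark seedlings (PL, 3 libraries) and every library of total RNA of Dark seedlings (total, 3 libraries), 6 of the 15 libraries in all. All seedlings were wild-type Columbia-0 (Col-0), with no transgene or mutation named, stratified for 4 days at 4 °C and then grown on plates for 4 days in darkness at 22 °C. A further 6 libraries, PL and total RNA of seedlings moved to white light (100 µmol photons per square metre each second) for 4 h after the dark period (L4h), serve below to ask whether the PL to total ratio differed with light. The labels give 1 extraction protocol for both kinds of RNA and do not say how polysomes were isolated, how many seedlings went into a library, or whether replicates were separate cultures. They number 3 replicates in each group, where the design text of the series speaks of 2, and all 3 were used. P-values therefore measure only the spread between these libraries, which may be technical.

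A polysome is an mRNA with several ribosomes on it, and the RNA recovered with polysomes is commonly taken as the share of transcripts in translation. A long open reading frame has room for more ribosomes than a short one, and RNAs that are not translated, such as precursors of microRNAs (miRNAs), small nucleolar RNAs and many pseudogene transcripts, are known to be mostly nuclear or free of ribosomes. In dark-grown seedlings the pathway to photosynthesis is held back, plastids have not greened, and growth goes mainly into the hypocotyl.

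Read totals in listed genes were 77.6, 92.8 and 91.7 M reads in PL libraries 1 to 3, and 72.9, 98.8 and 100.2 M reads in total RNA libraries 1 to 3. The first principal component (46.2% of the variance over 21348 tested genes) separated PL from total RNA. The second (34.6%) set replicate 1 of both kinds apart from replicates 2 and 3. Same-numbered libraries deviated together from their group means (correlations of 0.489, 0.280 and 0.421 for numbers 1, 2 and 3), so each PL library was paired with the total RNA library of its number. The label of an aerial part was checked with 5 root marker genes. EXPA7, COBL9 and NRT2.1 stayed at or below 0.485 CPM (counts per 1 M reads after scaling of the libraries) in all 6 libraries and IRT1 had no read, while CASP1, whose reads are shared with other genes in all 6 libraries, had 497, 300 and 426 CPM in PL against 112, 312 and 263 CPM in total RNA. In bulk RNA, fewer cells of a type and less RNA per cell cannot be told apart.

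Many transcripts of ribosomal proteins, histones and photosystem subunits were higher in PL than in total RNA, and many long mRNAs and noncoding RNAs were lower. Of 21348 genes tested, 2709 (12.7%) were higher and 2301 (10.8%) lower in PL (edgeR quasi-likelihood test with the replicate number as a block, Benjamini-Hochberg adjusted p under 0.05), 2026 and 1611 of them by at least 2-fold. Every called gene moved the same way in 3 of 3 pairs, and for 42.4% of tested genes all PL libraries lay above or all below the total RNA libraries. These ratios are relative to the whole of each library, so they say nothing of the amount of RNA on polysomes. The counts were 884 higher and 499 lower without pair 3, and 1742 higher and 1295 lower without the block.

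The ratio followed gene length. Read-weighted mean gene length was 1.52, 1.72 and 1.62 kb in PL libraries 1 to 3, against 2.03, 1.99 and 1.98 kb in total RNA libraries 1 to 3. Genes under 1 kb took 29.9%, 22.0% and 24.7% of the reads in PL and 12.0%, 13.5% and 13.5% in total RNA, and genes of 3 kb and over took 5.75%, 8.47% and 6.61% in PL and 13.8%, 13.4% and 12.9% in total RNA. On each of these measures the 3 PL libraries lay outside the range of the 3 total RNA libraries, with PL replicate 1 the farthest from them and PL replicate 2 the nearest.

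Among protein-coding genes the median log2 ratio of PL over total RNA was 1.02 for 544 genes under 0.5 kb and 0.91 for 4160 genes of 0.5 to 1 kb. It was 0.22 for 5256 genes of 1 to 1.5 kb, -0.11 for 4921 genes of 1.5 to 2 kb, -0.42 for 3997 genes of 2 to 3 kb, -0.72 for 1167 genes of 3 to 4 kb and -1.01 for 532 genes of 4 kb and over. In the class of 0.5 to 1 kb, 1785 genes were higher and 68 lower, while in the class of 4 kb and over none was higher and 337 were lower. The order of the classes from 0.5 kb upward was the same in each pair, with medians of 1.24, 0.67 and 0.82 for 0.5 to 1 kb in pairs 1, 2 and 3 and of -1.25, -0.76 and -1.04 for 4 kb and over. Across the 21348 genes the log2 ratio fell by 0.51 ± 0.19 per doubling of length (mean ± SD of the slopes in 3 pairs, which were -0.71, -0.35 and -0.47). Spearman's rho between length and the mean ratio was -0.63 across 20577 protein-coding genes, which share the 6 libraries and are not independent, and it was -0.70, -0.72 and -0.65 in the 3 pairs across 11774 genes with a mean of at least 10 CPM.

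**Figure D1:**
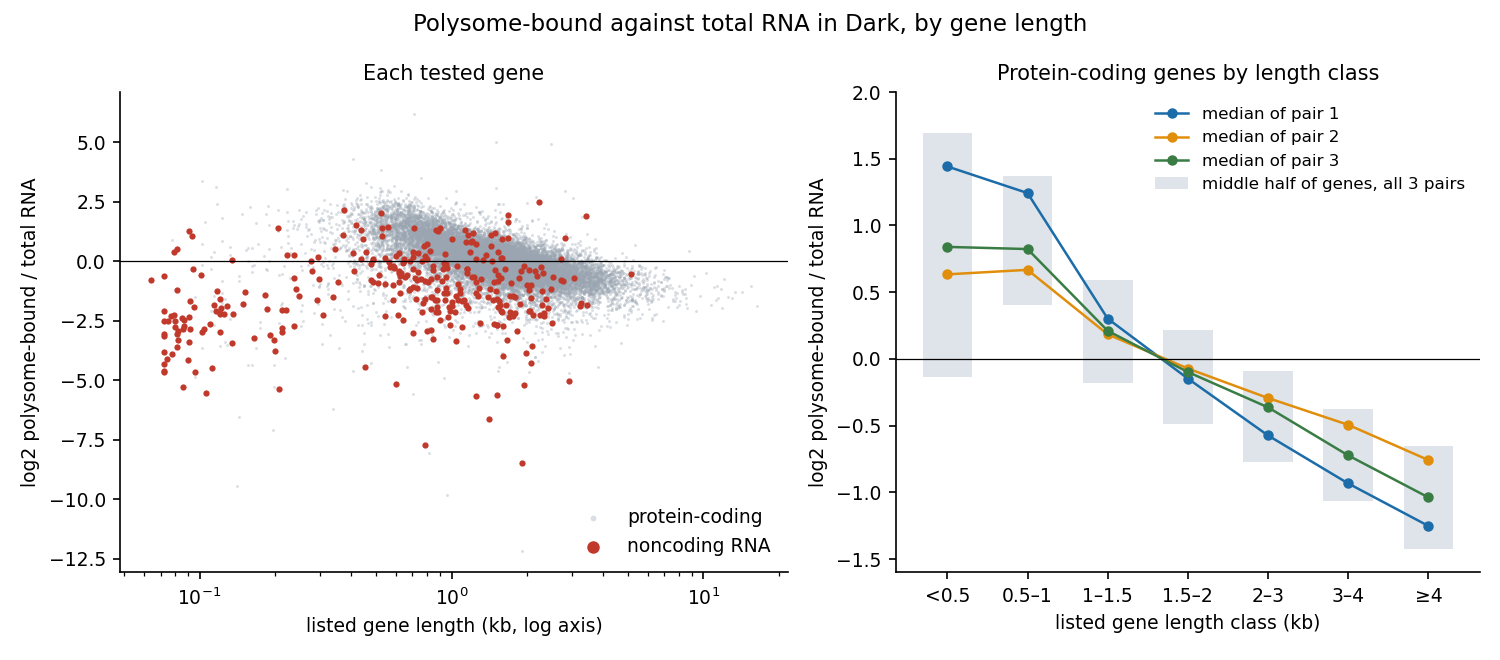
Log2 ratio of PL over total RNA against listed gene length. Left, each tested gene of the protein-coding (grey) and noncoding RNA (red) classes on a log length axis. Right, medians of protein-coding genes in 7 length classes for each pair (lines) and the interquartile range over all 3 pairs (grey bars): the median was 0.91 at 0.5 to 1 kb and -1.01 at 4 kb and over, and many short noncoding RNAs lay far below the protein-coding genes of their length.

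Coding length gave nearly the same relation as listed length (rho -0.64 with the mean ratio). The lengths of the untranslated leader (rho -0.07) and trailer (rho 0.03) and the number of complete upstream open reading frames (rho -0.08 across 19520 genes) gave little of one. Genes with a high share of G or C at the third codon position had higher ratios at a given length. Among genes of 0.5 to 1 kb the median log2 ratio was 1.08 in the tercile of highest share (44.7% and over) and 0.64 in the lowest (under 39.7%), with 1157 of 2204 genes higher in PL in the highest tercile and 257 of 878 in the lowest. The 3 pairs gave 1.4, 0.78 and 1.06 for the highest tercile and 0.97, 0.48 and 0.50 for the lowest, so the order held in each. Exon number did not behave alike in the pairs: among genes of 2 to 3 kb the median was -0.60, -0.40 and -0.74 in pairs 1, 2 and 3 for genes of 11 exons and over, and -0.74, -0.22 and 0.05 for genes of 1 exon.

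**Figure D2:**
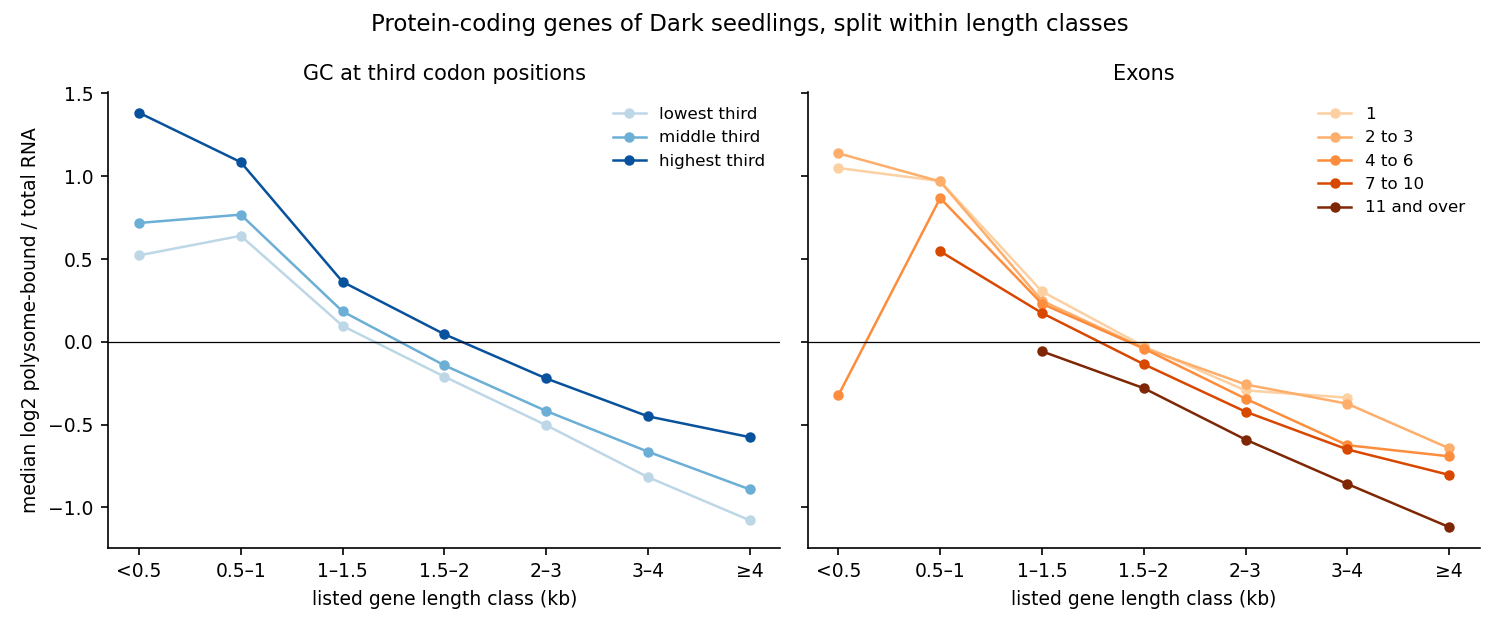
Median log2 ratio of PL over total RNA of protein-coding genes in 7 length classes, split by terciles of the share of G or C at the third codon position (left) and by exon number (right). At 0.5 to 1 kb the lines for the highest and lowest tercile lie at 1.08 and 0.64. The line for 4 to 6 exons starts with 31 genes under 0.5 kb.

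The base 3 positions before the start codon, a purine in most plant mRNAs, went with a small difference that did not hold in longer genes. For A, G, C and T the medians were 0.25, 0.24, 0.22 and 0.21 at 1 to 1.5 kb. At 2 to 3 kb they were -0.40, -0.42, -0.36 and -0.40. Among genes of 0.5 to 1 kb the median log2 ratio was 0.99 for 2139 genes with A there, 0.94 for 907 with G, 0.77 for 374 with C and 0.79 for 522 with T. The start contexts of 5 ribosomal protein genes and of 3 genes that were much lower in PL are shown to let that base be read, with the 12 bases before the start codon and the 12 that begin with it, the start codon in capitals, from RefSeq TAIR10.1.
AT4G31985: cacgacttcaagATGccgtcgcac
RPS28: tccgtctacagaATGgattctcaa
AT2G34480: tccagacgaaaaATGggtgctttc
RPSaA: agagataagaaaATGgcgactaat
XW6: atttcatcgaaaATGgcggaaaga
LIG6: atcttcctcatcATGgcctctgat
MAPKKK9: atcgtcgctcacATGaagaagtcg
AT5G07620: agtgtttcagagATGagaaaatct
The base is A in the 5 ribosomal protein genes, of which XW6 did not pass the test and the other 4 were higher in PL. It is A also in LIG6, C in MAPKKK9 and G in AT5G07620. Genes not shown did not keep to that split. Among those with the largest rises it is A in AT1G67860, AT3G10860 and WIH1, G in AT2G40205 and OEP6 and C in AGP13. Among the largest falls it is A in AT1G62310, AT2G33435 and AT2G42330.

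The protein-coding genes with the largest rises were nearly all short. Of the 8, 7 are listed at 0.531 kb or less and 1, AT5G59613, at 1.046 kb. AT3G10860, which encodes a small subunit of the cytochrome b-c1 complex of mitochondria, had 504, 180 and 330 CPM in PL against 35.8, 41.3 and 42.4 CPM in total RNA (log2 ratio 2.97 ± 0.36, estimate ± SE, edgeR adjusted p = 0.011). AT5G59613, annotated as an ATP synthase subunit, had 564, 238 and 375 CPM in PL against 35, 55.9 and 55.9 CPM in total RNA (2.94 ± 0.39, edgeR adjusted p = 0.011). For both genes the lowest PL library stood over 4 times above the highest total RNA library, and PL replicate 1 was the highest. Annotated genes overlap AT3G10860.

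OEP6, a protein of the outer plastid envelope, had 149, 40.9 and 65.6 CPM in PL against 6.91, 11.2 and 8.69 CPM in total RNA (3.06 ± 0.48, edgeR adjusted p = 0.011). AGP13, an arabinogalactan peptide of the cell surface, had 110, 74.4 and 115 CPM in PL against 4.01, 21.5 and 19.0 CPM in total RNA (3.01 ± 0.56, edgeR adjusted p = 0.014). WIH1, a small cysteine-rich transmembrane protein whose reads are shared with other genes in all 6 libraries, had 463, 116 and 150 CPM in PL against 22.6, 28.7 and 25.5 CPM in total RNA (2.95 ± 0.46). The uncharacterized gene AT1G67860 had 30.3, 1.93 and 1.80 CPM in PL against 1.68, 0.273 and 0.260 CPM in total RNA (3.30 ± 0.38), with replicate 1 of each kind far above replicates 2 and 3. In these 4 genes the PL and total RNA libraries did not overlap, which the rule for naming them required.

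AT2G40205 encodes ribosomal protein L41, one of the shortest proteins of the ribosome, and had 32.2, 3.53 and 5.62 CPM in PL against 0.701, 1.55 and 0.763 CPM in total RNA (3.12 ± 0.79, edgeR adjusted p = 0.031). Its whole coding sequence is shown because it is 78 bases long, with 25 codons before the stop of which 17 read as arginine or lysine (RefSeq TAIR10.1, chr2:16792355-16792531, minus strand, 2 coding exon parts, start and stop codon in capitals).
AT2G40205: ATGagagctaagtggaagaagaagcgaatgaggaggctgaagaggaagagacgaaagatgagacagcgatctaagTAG
PL replicate 1 stood 5 times or more above the other libraries, and an annotated gene overlaps this one.

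AT2G01021 headed the rises, with 247, 361 and 1349 CPM in PL against 54.0, 72.8 and 19.2 CPM in total RNA (3.38 ± 0.81, edgeR adjusted p = 0.027). It is annotated as a protein-coding gene of 0.102 kb at chr2:6571-6672 (RefSeq TAIR10.1), 626 bases after the end of an annotated ribosomal RNA gene and 1058 bases after that of the 18S ribosomal RNA. The share of reads in 4 listed ribosomal RNA genes was 0.269%, 0.529% and 1.51% in PL and 0.238%, 0.225% and 0.0800% in total RNA. Both were highest in PL replicate 3 and lowest in total RNA replicate 3, and the part of ribosomal RNA in this gene's reads was not tested. The 4 ribosomal RNA genes did not pass the test themselves, with median log2 ratios of 0.23, -0.24 and 2.84 in pairs 1, 2 and 3.

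The 8 protein-coding genes with the largest falls are listed at 1.08 to 4.724 kb. AT1G62310, a jumonji-domain factor, had 2.3, 4.42 and 2.64 CPM in PL against 41.3, 39.2 and 33.7 CPM in total RNA (-3.65 ± 0.27, edgeR adjusted p = 0.011). LIG6, a DNA ligase of plants, had 2.56, 5.17 and 1.72 CPM in PL against 34.7, 32.1 and 26.6 CPM in total RNA (-3.44 ± 0.32, edgeR adjusted p = 0.011). AT2G33435, an RNA-binding protein, had 0.829, 4.09 and 2.79 CPM in PL against 19.9, 24.1 and 20.9 CPM in total RNA (-3.30 ± 0.42). Total RNA libraries agreed closely for each of these genes, and all PL libraries lay several-fold below them.

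MAPKKK9, a kinase at the head of a mitogen-activated cascade, had 0.814, 6.04 and 3.42 CPM in PL against 25.8, 24.6 and 24.0 CPM in total RNA (-3.19 ± 0.55, edgeR adjusted p = 0.013). The protein kinase gene AT5G07620, whose reads are shared in 5 libraries, had 0.261, 2.60 and 3.21 CPM in PL against 8.36, 13 and 14.9 CPM in total RNA (-3.01 ± 0.55), and AT2G42330, annotated as a GC-rich sequence DNA-binding factor, had 7.68, 8.95 and 1.51 CPM in PL against 42.1, 40.1 and 39.3 CPM in total RNA (-3.05 ± 0.50). AT5G28400 (-4.68 ± 0.36) and AT5G28320 (-3.93 ± 0.57), both annotated as embryo defective proteins, had the largest falls, with 1.18, 3.47 and 1.38 CPM in PL against 49.4, 48.7 and 40.9 CPM in total RNA for AT5G28400. Both of these have fractional read numbers in all 6 libraries, as AT2G42330 has, so their reads are shared with other genes and each value is uncertain. With the length trend taken out of the ratios (chosen after seeing the data), all 8 falls still passed the test, at log2 ratios of -4.08 to -2.34. All 8 of the largest rises passed in that fit too, at log2 ratios of 1.81 to 5.09. Both sets were picked as the extremes of these same data, so passing again is little support for either.

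**Figure D3:**
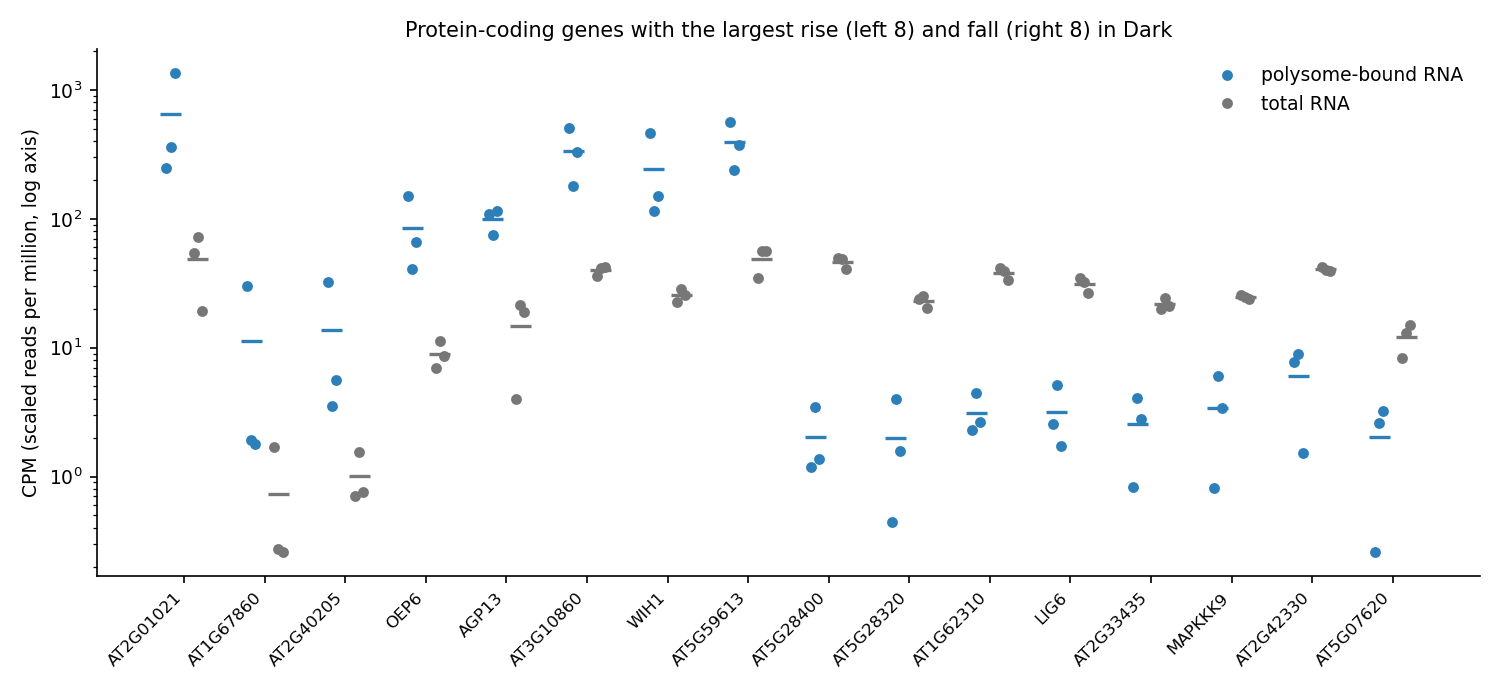
Scaled CPM on a log axis of the 8 protein-coding genes with the largest rise (left) and the 8 with the largest fall (right), in PL (blue) and total RNA (grey) of Dark seedlings. Points are the 3 libraries of a group and bars their mean. Groups did not overlap for any of the 16 genes, which the rule for naming them required.

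Of the 29 gene lists described here, ribosomal protein mRNAs had the highest share of members higher in PL. Of 65 tested genes of cytosolic ribosomal proteins 58 were higher and none was lower, with a median log2 ratio of 1.58 (1.89, 1.11 and 1.58 in pairs 1, 2 and 3), against 12.7% of all tested genes higher and a median of -0.01. The gene of ribosomal protein L39, AT4G31985, had 256, 59.3 and 98.8 CPM in PL against 14.9, 16 and 13.8 CPM in total RNA (2.94 ± 0.43, edgeR adjusted p = 0.011). RPS28 had 199, 74.9 and 126 CPM in PL against 18.4, 21.9 and 24.5 CPM in total RNA (2.52 ± 0.35), and RPSaA, of the small subunit, 452, 285 and 468 CPM in PL against 158, 162 and 162 CPM in total RNA (1.29 ± 0.25, edgeR adjusted p = 0.015). In these 3 genes PL replicate 2 was the lowest of the PL libraries and still above all total RNA libraries. The list also lay above its length: its median was 0.84 above the medians of the length classes its members fall in, and with the length trend taken out 24 were higher and 1 lower, against 2.38% and 3.09% of all tested genes. Among the 7 that did not pass were XW6, a ribosomal protein S5 family gene (0.78 ± 0.24, edgeR adjusted p = 0.0503), and AT2G40010 (-0.86 ± 0.28, edgeR adjusted p = 0.0598), whose reads are in part shared. Without pair 3, 35 of the list were higher and none lower.

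Most mRNAs of histones, which pack newly made DNA, were higher too. Of 46 tested genes 35 were higher and 1 lower, with a median of 1.68 and medians of 2.36, 1.22 and 1.53 in the pairs. The H2A gene RAT5 had 190, 58.2 and 65.3 CPM in PL against 20.1, 17.1 and 15.3 CPM in total RNA (2.36 ± 0.32, edgeR adjusted p = 0.011), and HTR12, the centromeric H3 gene, had 7.62, 6.51 and 5.0 CPM in PL against 1.71, 2.11 and 2.36 CPM in total RNA (1.62 ± 0.31). The PL libraries lay above all total RNA libraries for both. The 1 that was lower, AT1G21920, is annotated as an H3 K4-specific methyltransferase and not as a histone, and the list was drawn from the word in the annotation. Once the length trend was taken out, 12 histone genes were higher and none lower.

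Translation factors, in contrast, mostly did not pass the test. Of 35 tested 8 were higher and 2 lower, with a median of 0.18. Of all tested genes 12.7% were higher and 10.8% lower, so the list held a larger share of higher genes and a smaller share of lower ones. Small factors were among the higher: ELF5A-2, a gene of factor 5A with reads shared in 5 libraries, had 977, 982 and 1406 CPM in PL against 437, 449 and 397 CPM in total RNA (1.37 ± 0.26, edgeR adjusted p = 0.015). EIFISO4E, a plant cap-binding protein, had 76.3, 61.3 and 74.9 CPM in PL against 22.6, 32.6 and 38.7 CPM in total RNA (1.2 ± 0.25, edgeR adjusted p = 0.018), and EIF4E1, the other cap-binding protein, had 30.7, 34.3 and 41.9 CPM in PL against 16.5, 21.1 and 20.7 CPM in total RNA (0.87 ± 0.19). Neither cap-binding gene had overlapping groups. The 2 lower genes encode large kinases that control translation: TOR, the target of rapamycin kinase, listed at 8.007 kb, had 31.0, 55.5 and 31.1 CPM in PL against 148, 129 and 128 CPM in total RNA (-1.84 ± 0.27, edgeR adjusted p = 0.011), and GCN2, which phosphorylates initiation factor 2, had 9.81, 14.1 and 4.70 CPM in PL against 33.9, 28.9 and 26.6 CPM in total RNA (-1.77 ± 0.31, edgeR adjusted p = 0.013). Neither kinase passed with the length trend taken out (edgeR adjusted p = 0.120 for TOR and 0.094 for GCN2). Of the higher genes named above, ELF5A-2 (edgeR adjusted p = 0.121) and EIF4E1 (0.369) did not pass in that fit either, while EIFISO4E did (0.044). Of the 35 genes 1 was then higher and 1 lower. TCTP, the translationally controlled tumor protein, went against its length of 0.956 kb, with 1232, 734 and 834 CPM in PL against 2807, 1218 and 1082 CPM in total RNA (-0.76 ± 0.27, edgeR adjusted p = 0.077). It was named after its values were seen, its groups overlapped, and it passed with the length trend taken out (-1.34, edgeR adjusted p = 0.043). Without pair 3 no translation factor was higher and 2 were lower, and without pair 2, 4 were higher and 2 lower.

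Genes whose main reading frame lies below a conserved upstream reading frame, in which the upstream peptide is known to hold back translation, gave no call in the main fit. None of 20 passed in either direction (edgeR, where 12.7% and 10.8% of all genes did), and the median was 0.40. The ratio was positive in 16 of the 20. By DESeq2 5 of the 20 were higher, and in a fit that added the L4h libraries 4 were higher in Dark. With the length trend taken out 2 were higher and none lower, against 2.38% and 3.09% of all tested genes. BZIP11, repressed through its upstream frame by sucrose, had 3.47, 3.63 and 5.73 CPM in PL against 2.43, 2.31 and 2.23 CPM in total RNA (0.84 ± 0.31, edgeR adjusted p = 0.085). SAMDC, an enzyme of polyamine synthesis, had 2152, 2479 and 2592 CPM in PL against 1300, 1460 and 1388 CPM in total RNA (0.80 ± 0.25, edgeR adjusted p = 0.054). Groups did not overlap for either gene, and both ratios were positive in 3 of 3 pairs. PMEAMT was listed at 0 in total RNA replicate 2 while 3.98 and 19.4 CPM stood in replicates 1 and 3, and no fold is given for it.

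Among 19 genes of P-bodies and mRNA decay none was higher and 3 were lower, each listed at 2.126 kb or more. Of all tested genes 12.7% were higher and 10.8% lower, so the share of lower genes in this list was not far from that of all. XRN4, the cytoplasmic exonuclease that degrades decapped mRNA, had 30.0, 53.3 and 42.2 CPM in PL against 84.7, 89.9 and 84.4 CPM in total RNA (-1.08 ± 0.23, edgeR adjusted p = 0.020). UPF3, of nonsense-mediated decay, had 27.2, 48.4 and 41.5 CPM in PL against 72.6, 71.1 and 68.5 CPM in total RNA (-0.89 ± 0.24, edgeR adjusted p = 0.037). The decapping genes DCP1 (0.36 ± 0.23) and DCP2 (0.37 ± 0.19) had overlapping groups and did not pass. No P-body gene passed without pair 3 or with the length trend taken out, and without pair 1, 3 were higher and 4 lower. Of 23 splicing factor genes 1 was higher and 1 lower, smaller shares than those of all tested genes, and 21 did not pass. GRP8, a glycine-rich RNA-binding protein under clock control, was higher (687, 409 and 742 CPM in PL against 184, 252 and 279 CPM in total RNA, 1.34 ± 0.29). SR34b was lower (9.87, 10.5 and 1.4 CPM in PL against 21.8, 30.7 and 29.3 CPM in total RNA, -2.25 ± 0.61).

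Most nuclear genes of photosystem subunits and of plastid ribosomal proteins were higher in PL although the seedlings had been kept in darkness. Of 30 photosystem and electron transport subunits 25 were higher and none lower, with a median of 1.4, and of 30 nuclear genes of plastid ribosomal proteins 23 were higher and none lower, with a median of 1.27. PSAE1, a stromal subunit of photosystem I, had 730, 74.0 and 67.5 CPM in PL against 52.8, 23.0 and 16.6 CPM in total RNA (2.48 ± 0.43, edgeR adjusted p = 0.013). PRPS17, of the small plastid ribosomal subunit, had 411, 99.4 and 137 CPM in PL against 34.2, 28.0 and 24.7 CPM in total RNA (2.63 ± 0.36, edgeR adjusted p = 0.011), with reads shared with other genes. In both, PL replicate 1 was far above the other PL libraries.

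That replicate difference ran through the whole group. LHCA2, an antenna protein of photosystem I with reads shared in 5 libraries, had 1385, 137 and 92.7 CPM in PL against 262, 67.8 and 41.1 CPM in total RNA (1.52 ± 0.32, edgeR adjusted p = 0.020), and PSAD1 had 654, 109 and 102 CPM in PL against 177, 49.7 and 37.3 CPM in total RNA (1.49 ± 0.24, edgeR adjusted p = 0.012). Replicate 1 was the highest library of each kind, so the groups overlapped although every pair was positive. Median log2 ratios of the photosystem list were 2.34, 0.98 and 1.08 in pairs 1, 2 and 3, and those of the plastid ribosomal list 2.24, 0.80 and 0.90. Without the block none of the 30 photosystem genes and 3 of the 30 plastid ribosomal genes passed. Without pair 1, 25 and 24 were higher, and without pair 3, 14 and 8. Taking the length trend out left 4 photosystem genes and 1 plastid ribosomal gene higher.

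In the Calvin cycle 7 of 19 genes were higher and none lower, among them the small subunits of Rubisco. RBCS1A had 6573, 851 and 1093 CPM in PL against 747, 463 and 343 CPM in total RNA (1.89 ± 0.45, edgeR adjusted p = 0.026), with PL replicate 1 far above the rest, no overlap of the groups and reads shared in 5 libraries. Of 21 antenna genes 7 were higher and none lower. Of 21 genes of chlorophyll and tetrapyrrole synthesis 2 were higher and none lower, which is no larger a share than the 12.7% of all tested genes, and the median of that list was 0.36 with all pairs and -0.06 without pair 1. The 2 were GUN4, which binds chlorophyll precursors (129, 19.0 and 17.5 CPM in PL against 23.3, 7.53 and 5.40 CPM in total RNA, 1.83 ± 0.26), and FLU, a brake on precursor synthesis in darkness (130, 49.8 and 52.9 CPM in PL against 50.5, 24.5 and 22.8 CPM in total RNA, 1.2 ± 0.20, with reads shared in all 6 libraries). Each pair was positive for both genes, while their groups overlapped. HEMA1, of the first step of the pathway, had overlapping groups and did not pass (-0.35 ± 0.23, edgeR adjusted p = 0.29). Without the block no gene of the Calvin cycle or of chlorophyll synthesis and 1 of the antenna passed, and without pair 3, 2, 1 and 2 genes were higher in the 3 lists. Once the length trend was taken out, no Calvin cycle gene and 1 antenna gene were higher, while the 2 genes of chlorophyll synthesis still passed.

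Other lists held more genes higher in PL than the 12.7% of all tested genes. The list of mitochondrial electron transport was drawn from words in the annotation of genes on the nuclear chromosomes. Of its 68 tested genes 37 were higher and 2 lower, with a median of 1.09, and 27 were higher without pair 3. With the length trend taken out, 13 were higher and 3 lower, against 2.38% and 3.09% of all tested genes. AT1G76200, a small subunit of complex I, had 370, 152 and 249 CPM in PL against 27.8, 35.7 and 34.4 CPM in total RNA (2.89 ± 0.35, edgeR adjusted p = 0.011). AT2G07751, one of the 2 that were lower and annotated as a subunit of complex I, had 0.0461, 0.224 and 0.385 CPM in PL against 1.61, 5.87 and 1.18 CPM in total RNA (-3.65 ± 0.74, edgeR adjusted p = 0.018), and its reads are shared in 5 libraries. Neither gene had overlapping groups. AT2G07751, however, passed the filter on low values through total RNA alone, so its call had to lean downward.

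Of 29 proteasome subunits 12 were higher and none lower, with a median of 0.61. AT5G35590, an alpha subunit of the core particle, had 128, 82.1 and 95.8 CPM in PL against 46.4, 44.4 and 44.8 CPM in total RNA (1.15 ± 0.22, edgeR adjusted p = 0.015), without overlap. Of the 29, 1 was higher without pair 3, 8 without the block and none with the length trend taken out. Arabinogalactan proteins of the cell surface had 24 of 45 tested genes higher and none lower (6 higher without pair 3, 15 without the block), and lipid-transfer proteins, which carry lipids to the cuticle, 22 of 63 higher and none lower (11 without pair 3, 12 without the block). Taking the length trend out left 3 higher and 1 lower among the arabinogalactan proteins, and 3 higher and 2 lower among the lipid-transfer proteins. AGP12 had 2698, 1309 and 2464 CPM in PL against 209, 457 and 368 CPM in total RNA (2.65 ± 0.44), and LTP2, the tested gene of 0.5 to 1 kb with the highest mean level, had 10321, 6772 and 16379 CPM in PL against 1150, 2750 and 2895 CPM in total RNA (2.33 ± 0.42, edgeR adjusted p = 0.014). PL libraries lay above all total RNA libraries for both, and AGP31, a longer member of the first family, did the same with 102, 166 and 413 CPM in PL against 31.2, 84.0 and 86.7 CPM in total RNA (1.65 ± 0.29).

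Several regulators of the response to light were lower. Of 32 photoreceptors and light signalling genes 8 were lower and 1 higher, with a median of -0.47, where 10.8% of all tested genes were lower. PHYE, a phytochrome with reads shared in all 6 libraries, had 7.36, 8.93 and 5.48 CPM in PL against 25.8, 21.7 and 19.1 CPM in total RNA (-1.63 ± 0.23, edgeR adjusted p = 0.011), and PHYB, the main phytochrome of light-grown plants, had 36.5, 50.3 and 62.4 CPM in PL against 111, 84.5 and 85.0 CPM in total RNA (-0.93 ± 0.27, edgeR adjusted p = 0.047). COP1, the ubiquitin ligase that represses greening in darkness, had 11.6, 20.0 and 16.2 CPM in PL against 28.0, 27.6 and 25.2 CPM in total RNA (-0.79 ± 0.23, edgeR adjusted p = 0.047), and its partners SPA1, SPA2 and SPA3 were lower as well. The groups did not overlap for these genes. PHYA, the phytochrome of dark-grown seedlings, had 966, 621 and 571 CPM in PL against 1572, 816 and 722 CPM in total RNA and did not pass (-0.48 ± 0.24, edgeR adjusted p = 0.18). The 1 higher gene was HY5, the bZIP factor that COP1 marks for degradation, with 47.9, 21.4 and 18.1 CPM in PL against 16.8, 11.7 and 8.15 CPM in total RNA (1.18 ± 0.22, edgeR adjusted p = 0.014). The 8 lower genes are listed at 2.348 kb or more and HY5 at 0.902 kb. None of the 9 passed once the length trend was taken out, and 1 of the list was lower without pair 3 and 4 without the block.

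Of 35 auxin-responsive genes and response factors 9 were higher and 1 lower, where 12.7% and 10.8% of all tested genes were. The higher ones were short SAUR genes of cell expansion and the repressor genes IAA6 and IAA19. SAUR19 had 118, 66.7 and 75.7 CPM in PL against 20.7, 35.8 and 41.8 CPM in total RNA (1.41 ± 0.36, edgeR adjusted p = 0.032), and IAA19 had 388, 309 and 516 CPM in PL against 119, 223 and 240 CPM in total RNA (1.09 ± 0.29, edgeR adjusted p = 0.035). Neither overlapped, although reads of SAUR19 are shared with near-identical neighbours in 5 libraries. With the length trend taken out 1 gene of the list was higher, while 2 were higher without pair 3 and 5 without the block. In the list of sugar starvation and dark-inducible genes, 3 of 13 were higher and 3 lower: the dormancy-associated gene AT2G33830 had 4558, 3033 and 2479 CPM in PL against 1430, 1068 and 914 CPM in total RNA (1.54 ± 0.25), while DIN2, a glycosyl hydrolase, had 591, 608 and 174 CPM in PL against 1702, 885 and 807 CPM in total RNA (-1.43 ± 0.35) and ASN1, the dark-induced asparagine synthetase, had 747, 355 and 89.7 CPM in PL against 2614, 453 and 276 CPM in total RNA (-1.27 ± 0.34). None of the 3 lower genes of this list passed without pair 1, without pair 3 or without the block.

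Of large gene families, 42 of 245 tested pentatricopeptide repeat genes, which act on organelle RNA, were lower and 1 higher, and 17 were lower with the length trend taken out (17 also without pair 3). AT1G74580 had 0.553, 1.16 and 0.645 CPM in PL against 6.23, 8.00 and 7.73 CPM in total RNA (-3.27 ± 0.32, edgeR adjusted p = 0.011). F-box genes (24 lower and 6 higher of 203) and leucine-rich repeat receptor kinases (19 lower and 2 higher of 148) were lower about as often as all tested genes, of which 10.8% were. In these 3 families 11, 14 and 10 genes, in the order given, passed the filter on low values through total RNA alone. Through PL alone 0, 5 and 0 passed, so the counts lean downward. Without pair 3, 3 F-box and 2 receptor kinase genes were lower, and without the block 10 and 6. With the length trend taken out the split of the receptor kinases turned, to 11 higher and 1 lower: MRH1 had 46.8, 34.8 and 43.6 CPM in PL against 16.1, 24.0 and 24.9 CPM in total RNA at a length of 2.861 kb (0.96 ± 0.25, and 1.54 with the length trend taken out). Of the remaining lists, 2 of 14 tubulins, 2 of 16 chaperones and 1 of 16 genes of lipid mobilization were higher, and 2 of the last were lower, among them PXA1, the peroxisomal importer of fatty acids (-1.83 ± 0.29). Counts this small do not set these lists apart from all tested genes, of which 12.7% were higher and 10.8% lower. No gene passed among 23 of cell wall loosening, 10 of seed storage, 2 root markers and 9 reference genes, of which ACT2 had 1927, 1842 and 2821 CPM in PL against 3025, 1812 and 1732 CPM in total RNA (0.03 ± 0.32, edgeR adjusted p = 0.96).

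**Figure D4:**
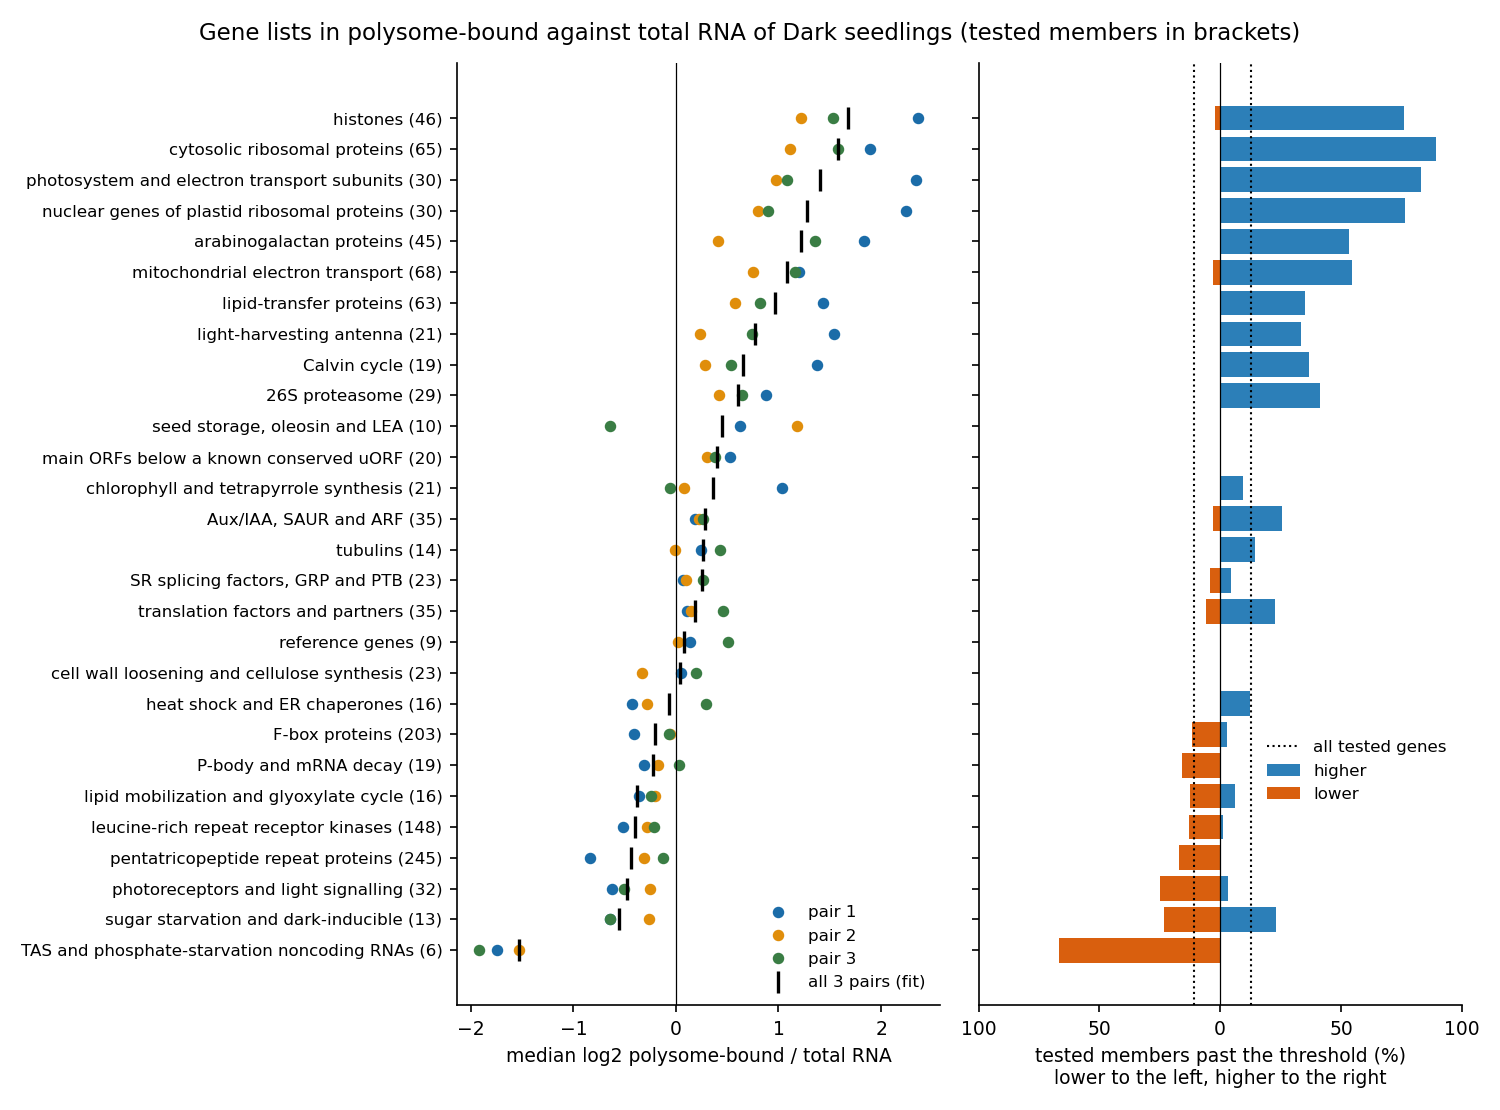
Left, median log2 ratio of PL over total RNA of the tested members of each gene list, in each pair (points) and in the fit of all 3 pairs (vertical ticks). Right, the percent of tested members past the threshold, lower to the left and higher to the right, with dotted lines at the shares of all tested genes (10.8% lower, 12.7% higher). Histones and cytosolic ribosomal proteins lie at the top, with medians of 1.68 and 1.58, and pair 1 stands apart from the other pairs in the photosynthesis lists.

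Pseudogenes and noncoding RNA other than ribosomal RNA took a smaller share of the reads in PL. The listed ribosomal RNA genes, described above, took a larger one. Noncoding RNA took 0.191%, 0.174% and 0.112% of reads in PL libraries 1 to 3 and 0.419%, 0.386% and 0.356% in total RNA libraries 1 to 3, and pseudogenes 0.172%, 0.187% and 0.130% in PL and 0.389%, 0.447% and 0.416% in total RNA. On both shares the highest PL library lay below the lowest total RNA library. Many of these genes have few reads, and 30 of 46 tested miRNA precursor genes, 13 of 24 snoRNA genes and 8 of 10 tRNA genes passed the filter on low values through total RNA alone, so counts over them had to lean downward. The counts that follow are over genes with a mean of at least 1 CPM, of which some also passed through total RNA alone: 1 of 12 miRNA precursor genes, 8 of 87 long noncoding RNA genes, 3 of 78 other noncoding RNA genes and 5 of 97 pseudogenes. They describe these genes beside the 10.8% of all tested genes that were lower. Of the 12 miRNA precursor genes, 9 were lower and none higher. Of 5 snoRNA genes at that level 4 were lower, and AT4G39366 did not pass (2.01, 1.00 and 0.261 CPM in PL against 2.91, 2.63 and 2.17 CPM in total RNA). Of 87 long noncoding RNA genes 29 were lower and 6 higher, of 78 other noncoding RNA genes 29 were lower and 5 higher, and of 97 pseudogenes at that level 31 were lower and none higher. Without pair 3 the lower calls over all tested noncoding RNA genes numbered 58, against 122 with all pairs.

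The mature miRNAs of the precursor genes described next are shown with the seed (bases 2 to 8) in capitals, from RefSeq TAIR10.1, since precursors are compared by the miRNA they yield. The tables count reads over the precursor genes and not mature miRNAs.
miR156 of MIR156a, MIR156c, MIR156d, MIR156e and MIR156f (5p): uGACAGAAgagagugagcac
miR167d: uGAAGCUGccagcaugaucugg
miR822-5p: uGCGGGAAgcauuugcacaug
miR162a-3p: uCGAUAAAccucugcauccag
miR824-5p: uAGACCAUuugugagaaggga
miR414: uCAUCUUCaucaucaucguca
The 5 tested precursors of the miR156 seed GACAGAA, which targets SPL factors and is known to keep plants juvenile, yield the same mature sequence. MIR156a, MIR156c and MIR156f were lower in PL, while MIR156d and MIR156e, with under 2 CPM in every library, passed the filter through total RNA alone and are not counted. MIR156f had 1.32, 0.735 and 0.347 CPM in PL against 32.9, 12.4 and 4.47 CPM in total RNA (-4.15 ± 0.30, edgeR adjusted p = 0.011). MIR156a had 1.26, 0.531 and 0.199 CPM in PL against 10.3, 2.91 and 2.00 CPM in total RNA (-2.92 ± 0.34), and MIR156c had 19.8, 6.54 and 2.89 CPM in PL against 41.2, 18.2 and 14.7 CPM in total RNA (-1.62 ± 0.29, edgeR adjusted p = 0.013). Replicate 1 was the highest and replicate 3 the lowest library of each kind for all 3 precursors, so that MIR156c overlapped between the groups while each pair fell.

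MIR167d, whose miRNA targets auxin response factors, had 3.16, 7.50 and 5.0 CPM in PL against 9.58, 52.7 and 63.1 CPM in total RNA (-2.70 ± 0.39, edgeR adjusted p = 0.011). Of the other precursors with its seed GAAGCUG, MIR167a, which passed the filter through total RNA alone, was lower, and MIR167b did not pass (log2 ratio 1.27). MIR822 had 5.27, 11.5 and 5.65 CPM in PL against 14.7, 26 and 20.4 CPM in total RNA (-1.50 ± 0.23), and MIR162a, whose miRNA targets the processing enzyme DCL1, had 4.84, 5.42 and 4.01 CPM in PL against 6.91, 13.5 and 13.3 CPM in total RNA (-1.19 ± 0.30, edgeR adjusted p = 0.030). MIR824 had 1.2, 1.04 and 0.422 CPM in PL against 4.55, 3.48 and 2.73 CPM in total RNA (-2.10 ± 0.35). The groups did not overlap for MIR167d, MIR822, MIR162a or MIR824. MIR414 stood level, with 10.4, 9.61 and 10.9 CPM in PL against 12.4, 9.04 and 7.95 CPM in total RNA (0.10 ± 0.24, edgeR adjusted p = 0.79). Precursors other than MIR156f were named after their values were seen.

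The TAS transcripts, which are cut by miRNAs and yield trans-acting small RNAs, stand in a list with phosphate-starvation RNAs, of which 4 of 6 tested genes were lower and none higher. TAS2 had 1.32, 1.59 and 0.745 CPM in PL against 4.14, 5.34 and 6.13 CPM in total RNA (-2.13 ± 0.38, edgeR adjusted p = 0.013), and TAS1C had 0.276, 0.337 and 0.285 CPM in PL against 1.46, 2.35 and 1.98 CPM in total RNA (-2.66 ± 0.39), with reads shared with other genes. AT4, the phosphate-starvation RNA that sequesters miR399, had 1.64, 4.75 and 14.2 CPM in PL against 7.32, 15.1 and 25.9 CPM in total RNA (-1.55 ± 0.30, edgeR adjusted p = 0.015), lower in each pair although the groups overlapped. The 4 called genes were lower with the length trend taken out too. Genes of other noncoding classes stood on both sides. The noncoding RNA gene AT4G02005 had 1.58, 1.81 and 0.310 CPM in PL against 15.6, 14.6 and 13.9 CPM in total RNA (-3.83 ± 0.51), while AT2G20724, a transcribed pseudogene, had 54.6, 28.9 and 38.1 CPM in PL against 9.18, 17.2 and 14.5 CPM in total RNA (1.56 ± 0.35, edgeR adjusted p = 0.022) and the noncoding RNA gene AT1G31935 had 46.9, 22.2 and 20.1 CPM in PL against 11.4, 10.5 and 9.07 CPM in total RNA (1.42 ± 0.26). PL and total RNA libraries did not overlap for these 3 genes, which the rule for naming them required. AT2G11240, a pseudogene listed at 6.063 kb, had 80.5, 139 and 22.2 CPM in PL against 534, 681 and 648 CPM in total RNA (-3.26 ± 0.52, edgeR adjusted p = 0.011).

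**Figure D5:**
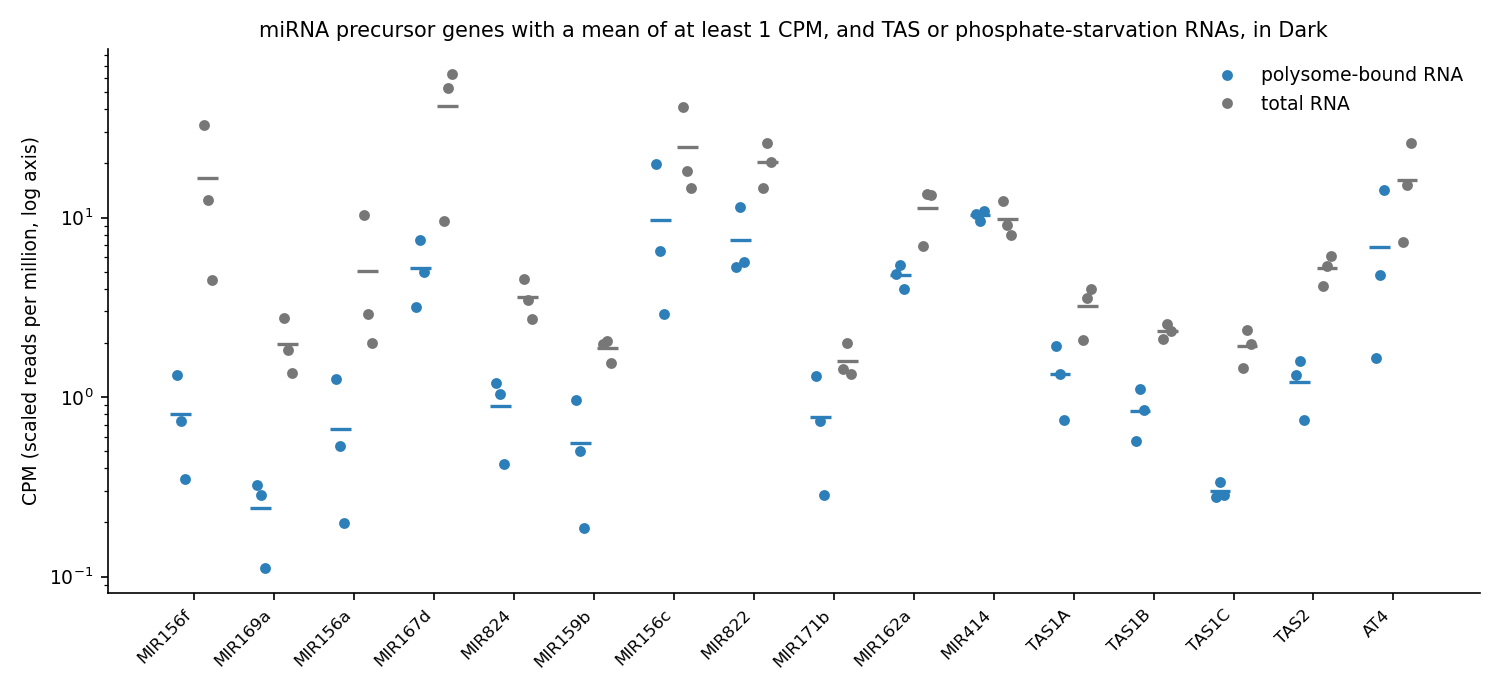
Scaled CPM on a log axis of miRNA precursor genes with a mean of at least 1 CPM and of TAS and phosphate-starvation RNAs, in PL (blue) and total RNA (grey) of Dark seedlings. Points are the 3 libraries of a group and bars their mean. MIR398c, listed at 0 in replicate 1 of both kinds, is not drawn. MIR414 stands level at about 10 CPM, and the other genes drawn have lower means in PL.

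The PL to total ratios in L4h seedlings were set beside those in Dark. In a fit of the 12 libraries of both conditions (21924 genes tested), 3098 genes (14.1%) were higher and 2463 (11.2%) lower in PL in L4h, against 2862 (13.1%) higher and 2531 (11.5%) lower in Dark. Of the genes that were higher, 2414 were shared, 77.9% of those of L4h and 84.3% of those of Dark, and of the lower genes 1899 were shared, 77.1% and 75.0%. No gene was called in opposite directions, and Spearman's rho between the ratios was 0.87 across genes. The median log2 ratio was 1.02 in L4h and 0.91 in Dark for protein-coding genes of 0.5 to 1 kb, and -1.09 in L4h and -1.01 in Dark for those of 4 kb and over. The slope on log2 length was -0.56 ± 0.15 in L4h and -0.49 ± 0.18 in Dark (mean ± SD of 3 pairs each). It was steeper in L4h than in Dark for each replicate number, at -0.70 and -0.69 for number 1, -0.41 and -0.33 for number 2, and -0.58 and -0.44 for number 3. A two-sided exact permutation test over the pairs, which does not use the numbers, gave p = 0.7, and since it cannot go below 0.1 it shows neither a difference nor its absence.

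The difference between the L4h and the Dark ratio was tested for each gene as an interaction, and none of 21924 genes passed in either direction (edgeR with pairs as blocks, 0%), while 205 had an unadjusted p under 0.05. DESeq2 called 1 gene, scpl10, a serine carboxypeptidase-like gene (log2 difference -4.91, DESeq2 adjusted p = 0.0025). Without replicate 1 of each group edgeR called AT3G13700 and AT5G07840, at log2 differences of -13.1 and 12.7. Both values are too large to be read as folds, and neither gene passed with all replicates. Medians of lists in the 12-library fit were 1.57 in L4h and 1.58 in Dark for cytosolic ribosomal proteins, 1.70 in L4h and 1.68 in Dark for histones, 1.34 in L4h and 1.09 in Dark for mitochondrial electron transport, and 0.94 in L4h and 1.4 in Dark for photosystem subunits. They were 0.86 in L4h and 1.27 in Dark for plastid ribosomal proteins, 0.19 in L4h and 0.66 in Dark for the Calvin cycle, -0.23 in L4h and 0.36 in Dark for chlorophyll synthesis, and 1.14 in L4h and 0.45 in Dark for seed storage proteins. No gene of these lists passed the test of the difference, and in Dark the pairs lay far apart for some of them. The Dark medians in pairs 1, 2 and 3 were 1.03, 0.08 and -0.06 for chlorophyll synthesis. For the Calvin cycle they were 1.38, 0.28 and 0.53, and for seed storage proteins 0.62, 1.18 and -0.64. PSAE1 had a log2 ratio of 2.02 in L4h, RPS28 of 2.46, LIG6 of -2.74 and MIR156f of -4.18, each in the direction it had in Dark.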

How the data were processed

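Col-0 seedlings were profiled as 15 libraries, of which 6 (Dark, PL and total RNA) carry the main comparison and 6 of L4h the comparison with light. The authors deposited 1 table of 33323 genes per library: estimated counts (not normalized, whole in 84.4% to 87.2% of genes at a tolerance of 1e-06, and rounded here for testing), RPKM values computed by the authors per kilobase of listed length, and that length. Build TAIR10 is per the submitters' processing notes. Kit, strand, aligner and counter are not given in the sources used here. RefSeq TAIR10.1 gave symbols, biotypes, features and sequences for 32835 genes. The listed length equals a RefSeq transcript's within 1 base in 34.8% of them. Reads of near-identical copies or of genes overlapping on either strand cannot be told apart.

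The main fit used edgeR 4.0.16 under R 4.3.3, with TMM library scaling, genes kept by filterByExpr at min.count 10 and replicate number as a block, since same-numbered libraries deviated together (correlations of 0.280 to 0.489). SE is the log2 ratio over the root of F. Of the 21348 tested genes 848 passed the filter through total RNA alone and 304 through PL alone. Alternatives were DESeq2 1.42.0, limma 3.58.1 on log2(RPKM + 1) and log2(RPKM + 0.1), RLE scaling, other filters, scaling over protein-coding genes, no block, 12 libraries in 1 fit and each pair left out, which in a blocked fit equals leaving out either of its libraries. Removing the length trend (a loess of span 0.5 as an offset) was chosen after seeing the data. The fits were tested on simulated data. Members, 29 gene lists and tests were chosen with earlier results of these data known. The text names the 8 protein-coding genes that rose most and the 8 that fell most among those with adjusted p under 0.05, no overlap of groups and 10 CPM or more in the higher one, 4 and 4 other genes by the same rule, 2 leading tested members per list and up to 3 more that changed most, further members as examples, and the gene of highest mean CPM of each length class.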

Additional observations from a re-analysis of the deposited data

How the results depend on the processing

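The counts of genes higher and lower in PL (2709 and 2301) stayed within 1.5 times under DESeq2 (3629 and 3181), RLE scaling, no filter, an RPKM filter, scaling over protein-coding genes, limma on log2(RPKM + 1) (1933 and 3383) and 12 libraries in 1 fit (2862 and 2531). They were 1742 and 1295 with no replicate block, 1773 and 3496 with limma on log2(RPKM + 0.1), and 509 and 659 with the length trend removed, of which 409 and 547 were among the main calls. Leaving out a pair gave 884 to 2895 higher and 499 to 2683 lower, the lowest without replicate 3, and the cause was not tested. The share of calls that were higher was 54.1%, and 36.4% and 33.6% under limma with pseudocounts 1 and 0.1, where the median ratio of all genes was -0.15 and -0.24, 63.9% without replicate 3 and 43.6% with the length trend removed. The length slope stayed negative in the 10 alternatives run for it, which do not include DESeq2, RLE scaling, the RPKM filter or scaling over protein-coding genes: it was -0.81 for genes of at least 10 CPM and -0.29 with no filter, and -0.59 to -0.41 without a pair. The 0 calls of the L4h and Dark difference became 1 under DESeq2 and 0 to 2 without a pair. Of 113 called named genes 71 passed without the block, 64 without each pair in turn and 48 with the length trend removed. In that last fit 62 were lost, and AT2G39260 (0.077), AT1G04210 (0.086) and AT5G40450 (0.34) turned positive. Depth of 72.9 to 100.2 M reads limits genes under 1 CPM, and the number of pairs limits every p: the smallest adjusted p was 0.0108.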
